A study of Mus musculus with 16 samples.

Results

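Described here are 8 mature mouse miRNAs from the clusters of the miR-15/16 family: mmu-miR-15a-5p, mmu-miR-15b-5p, mmu-miR-16-5p, mmu-miR-195a-5p, mmu-miR-497a-5p, mmu-miR-322-5p, mmu-miR-322-3p and mmu-miR-503-5p. The rule picked them by name, not by signal, from the 1881 mature miRNAs of the array. Total RNA came from the lateral ventricle (LV) wall, a thin slice of brain that carries the ciliated ependymal cells and several other cell types. The question was how miRNA levels differed between 8 wild-type (WT) littermates and 8 Dgcr8+/- mice. All 16 mice were 8 months old and male, and each was measured on 1 array of its own. Dgcr8+/- mice carry 1 disrupted and 1 intact copy of Dgcr8 in every cell of the body, so the change is not limited to the LV wall or to 1 cell type.

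Dgcr8 is the RNA-binding partner of the nuclease Drosha, and together they cut the hairpin out of most primary miRNA transcripts. Dicer then frees a 5p and a 3p strand from each hairpin, and as a rule only 1 of these arms is kept. Bases 2 to 8 of the kept strand, the seed, pair with target mRNAs, so miRNAs with the same seed share many predicted targets. The miR-15/16 family is known for repressing cyclins, cyclin-dependent kinases and the survival gene Bcl2, and the loss of miR-15a and miR-16-1 is a known event in chronic lymphocytic leukaemia.

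All 8 members had a mature sequence in the RefSeq table of GRCm38.p6. The sequences are shown because the seed defines the family and the bases after it tell its members apart. They are written 5′ to 3′ with the seed in capitals.
mmu-miR-15a-5p: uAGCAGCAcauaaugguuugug
mmu-miR-15b-5p: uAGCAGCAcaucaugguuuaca
mmu-miR-16-5p: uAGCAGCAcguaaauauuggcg
mmu-miR-195a-5p: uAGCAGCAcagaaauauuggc
mmu-miR-497a-5p: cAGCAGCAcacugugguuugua
mmu-miR-322-5p: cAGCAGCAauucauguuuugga
mmu-miR-503-5p: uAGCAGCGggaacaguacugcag
mmu-miR-322-3p: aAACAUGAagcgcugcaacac

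The first 6 of these shared the seed AGCAGCA. The seed of miR-503-5p differed from it in its last base, and miR-322-3p, the opposite arm of the miR-322 hairpin, had an unrelated seed. Outside the seed the closest pair was miR-16-5p and miR-195a-5p, which differed at 2 of the 21 positions compared from the 5′ end. MiR-15a-5p and miR-15b-5p differed at 4 of 22 positions, and miR-15a-5p and miR-16-5p at 6 of 22. Whether probes for such close sequences bound each other's miRNA was not tested.

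The members came from 4 genomic clusters. In GRCm38.p6, miR-15a-5p lay on the minus strand at chr14:61632075-61632096, and the first copy of miR-16-5p, from Mir16-1, lay beside it at chr14:61631936-61631957. Both hairpins are within Dleu2, a host gene of non-coding RNA. MiR-15b-5p lay on the plus strand at chr3:69009775-69009796 and the second copy of miR-16-5p, from Mir16-2, at chr3:69009918-69009939, both within Smc4, which encodes a condensin subunit. MiR-497a-5p lay at chr11:70234730-70234751 and miR-195a-5p at chr11:70235062-70235082, both on the plus strand. On the X chromosome and on the minus strand lay miR-322-5p at chrX:53054306-53054327, miR-322-3p at chrX:53054269-53054289 and miR-503-5p at chrX:53054027-53054049. Mir16-1 and Mir16-2 give the same mature sequence, so the signal of miR-16-5p could not be divided between chromosomes 14 and 3.

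Signals are given on the log2 scale after quantile normalization, which gives every array the same distribution. A log2 fold change is therefore Dgcr8+/- minus WT relative to the other miRNAs of the array. Its test was limma with Benjamini-Hochberg adjustment over the 495 miRNAs that were detected on at least 8 of the 16 arrays. In bulk tissue, fewer cells of a type and less RNA per cell cannot be told apart.

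Before any normalization the arrays of Dgcr8+/- mice were dimmer. Their median log2 signal was lower by a mean of -0.33 (2-sided exact permutation test, p = 0.00171), and 467 to 492 miRNAs were detected on them against 495 to 540 on WT arrays. Spike-in RNAs added for labelling differed by -0.0068 (2-sided exact permutation test, p = 0.949). Those added for hybridisation were lower by -0.35 (2-sided exact permutation test, p = 0.0597). The part of the hybridisation in the dimmer signal was not tested. Dgcr8+/- replicate 2 was the lowest array in median signal, in detected miRNAs and in both kinds of spike-in RNA. Slide 1 held 6 WT and 2 Dgcr8+/- arrays, replicate 2 among them, and slide 2 held 2 WT and 6 Dgcr8+/- arrays.

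Of the 8 members, 6 were detected on all 16 arrays and 2, miR-322-3p and miR-503-5p, on none. Of the 6 that were tested, 1 passed the threshold, miR-16-5p, and it was higher in Dgcr8+/- mice. That call was lost when no spot was left out for an outlier mark and when the deposited table of total signals, quantile-normalized, was used. With no normalization between arrays or with scaling to the labelling spike-ins, miR-16-5p instead passed as lower. Its log2 fold changes were then -0.36 and -0.35 (adjusted p = 0.0159 and 0.0293 from limma). Over all 495 tested miRNAs, 56.2% passed, with 27.9% lower and 28.3% higher, whereas with no normalization between arrays 293 were lower and 0 higher from limma, also 0 higher at an unadjusted p below 0.05. By the methods' t-test, 0 were then higher after adjustment and 2 before it. The sizes of the 6 log2 fold changes lay between 0.10 and 0.15, all below the median size over all tested miRNAs, 0.27. The median log2 fold change of the 6 members was -0.0080, against 0.037 for all tested miRNAs. No member had genotype groups that did not overlap, whereas 24.2% of tested miRNAs did. No member had an unadjusted p below 0.05 together with a log2 fold change beyond 0.4, the thresholds stated by the study, whereas 28.5% of tested miRNAs did.

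**Figure D1:**
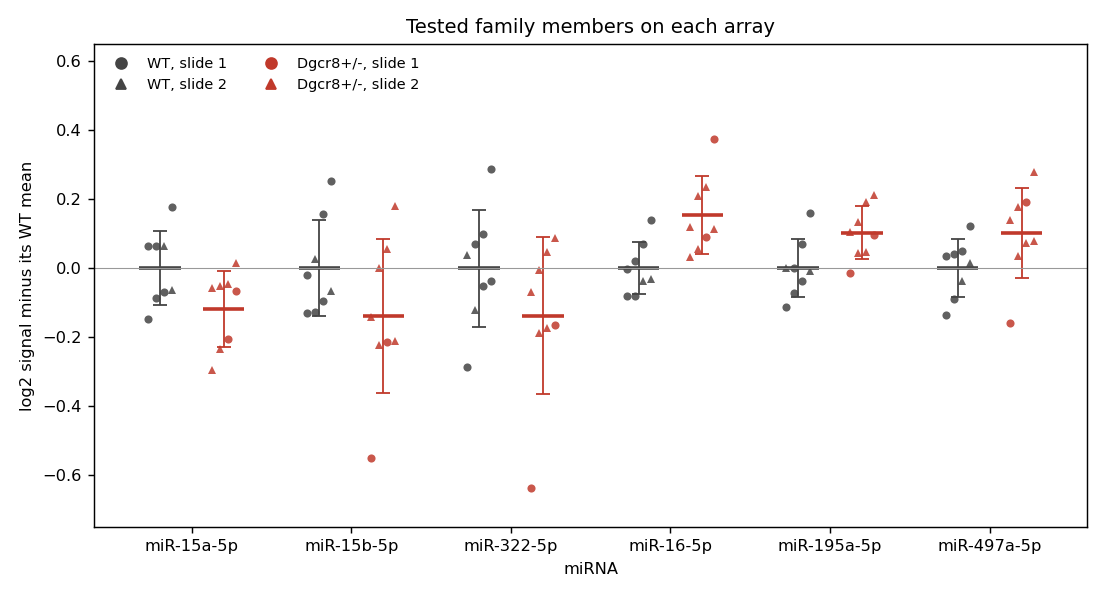
Log2 signal of the 6 tested members on each array (y axis, after subtraction of the WT mean of that miRNA), by genotype and slide. Points are mice, thick lines are means and bars are SD (n = 8); the groups overlap for every member, and Dgcr8+/- replicate 2 gives the lowest points of miR-15b-5p and miR-322-5p.

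For mmu-miR-16-5p, the member made from both the Dleu2 and the Smc4 hairpins, log2 signals were 11.11 to 11.34 in WT mice (median 11.18). In Dgcr8+/- mice they ran from 11.23 to 11.57 (median 11.31). All 8 Dgcr8+/- mice lay above the WT median and 3 lay above the highest WT mouse. The means were 11.20 ± 0.076 (SD, n = 8) and 11.35 ± 0.11 (SD, n = 8). The log2 fold change was 0.15 (95% confidence interval 0.043 to 0.26, adjusted p = 0.0196 from limma), or 1.11-fold, whereas with no normalization between arrays it was -0.36 and with scaling to the labelling spike-ins -0.35. It was 0.16 with no spot left out (adjusted p = 0.194 from limma) and 0.072 in the deposited table (adjusted p = 0.394 from limma). The difference was 0.22 within slide 1, which held Dgcr8+/- replicate 2, and 0.16 within slide 2. Replicate 2 gave the highest value, 11.57. With each array left out in turn, the log2 fold change was 0.12 to 0.17 and passed in all 16 runs. Both probes of miR-16-5p were higher, by 0.14 and 0.16.

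The first-named partners of miR-16-5p in its clusters had mean differences below 0. The signal of mmu-miR-15a-5p, in Dleu2, spanned 9.94 to 10.27 in WT mice (median 10.09) and 9.79 to 10.10 in Dgcr8+/- mice (median 10.03). Of the 8 Dgcr8+/- mice, 7 lay below the WT median and 3 below the lowest WT mouse. The log2 fold change was -0.12 (95% confidence interval -0.24 to 0.0034, adjusted p = 0.0852 from limma), with -0.14 within slide 1 and -0.11 within slide 2. In the deposited table, after quantile normalization, it passed, at -0.16 (adjusted p = 0.0107 from limma). That of mmu-miR-15b-5p, in Smc4, spanned 7.70 to 8.08 in WT mice (median 7.78) and 7.28 to 8.01 in Dgcr8+/- mice (median 7.65). The groups overlapped, although 5 Dgcr8+/- mice lay below the lowest WT mouse. The log2 fold change was -0.14 (95% confidence interval -0.33 to 0.052, adjusted p = 0.194 from limma). It was -0.39 within slide 1, which held Dgcr8+/- replicate 2, and -0.036 within slide 2. Without replicate 2, the lowest Dgcr8+/- mouse at 7.28, it was -0.079 (adjusted p = 0.351 from limma).

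The members of the chromosome 11 cluster had mean differences above 0 and did not pass. The signal of mmu-miR-195a-5p spanned 8.15 to 8.42 in WT mice (median 8.25) and 8.24 to 8.47 in Dgcr8+/- mice (median 8.36). The groups overlapped, with 7 of 8 Dgcr8+/- mice above the WT median. The log2 fold change was 0.10 (95% confidence interval 0.0048 to 0.20, adjusted p = 0.0660 from limma), with 0.040 within slide 1 and 0.13 within slide 2. That of mmu-miR-497a-5p spanned 7.67 to 7.93 in WT mice (median 7.83) and 7.64 to 8.08 in Dgcr8+/- mice (median 7.91). Again 7 of 8 Dgcr8+/- mice lay above the WT median, 4 of them above the highest WT mouse. The log2 fold change was 0.10 (95% confidence interval -0.020 to 0.22, adjusted p = 0.136 from limma), with 0.012 within slide 1 and 0.14 within slide 2. Without Dgcr8+/- replicate 2, both passed the threshold, with 0.12 for miR-195a-5p (adjusted p = 0.0199 from limma) and 0.14 for miR-497a-5p (adjusted p = 0.0131 from limma). Without WT replicate 5, miR-195a-5p passed as well, with 0.13 (adjusted p = 0.0254 from limma).

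The signal of mmu-miR-322-5p, the mouse counterpart of human miR-424-5p, spanned 5.91 to 6.48 in WT mice (median 6.19) and 5.56 to 6.28 in Dgcr8+/- mice (median 6.08). Of the 8 Dgcr8+/- mice, 6 lay below the WT median, and only replicate 2, at 5.56, lay below the lowest WT mouse. The log2 fold change was -0.14 (95% confidence interval -0.34 to 0.065, adjusted p = 0.220 from limma). It was -0.42 within slide 1, which held replicate 2, and -0.0096 within slide 2. Without replicate 2 it was -0.067.

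**Figure D2:**
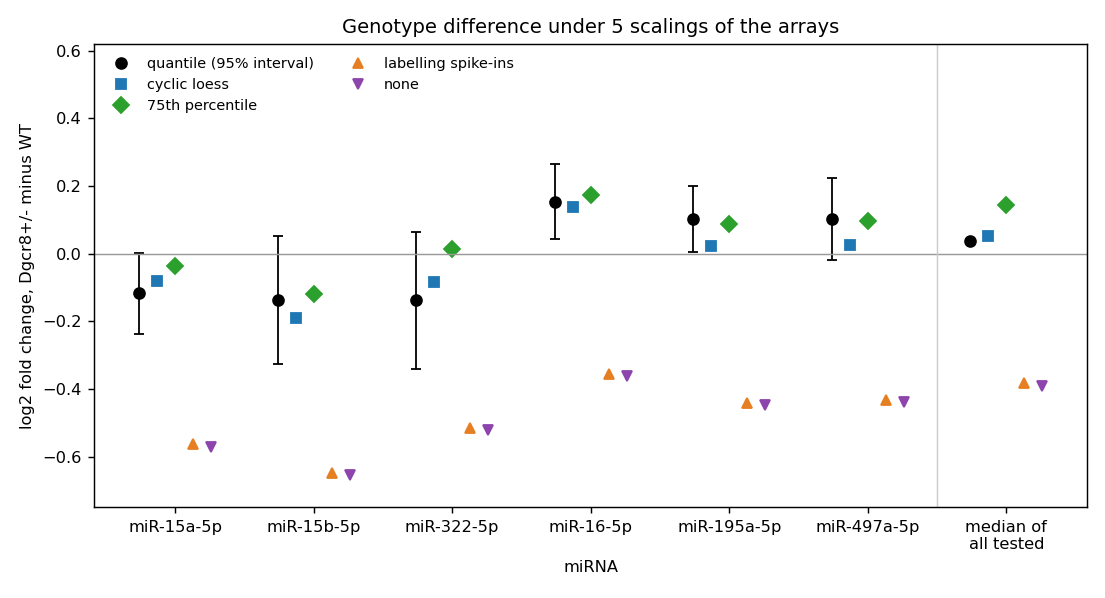
Log2 fold change (y axis, Dgcr8+/- minus WT) of the 6 tested members and the median of all 495 tested miRNAs, under quantile normalization (with its 95% confidence interval) and 4 other ways of scaling the arrays. Without normalization or with labelling spike-ins all 6 members and the median lie below 0; under both, miR-16-5p has the smallest and miR-15b-5p the largest decrease.

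The direction of single members depended on how the arrays were scaled. With no normalization, the typical tested miRNA shifted by a median of -0.39, and the log2 fold changes of the members were -0.36 for miR-16-5p, -0.44 for miR-497a-5p, -0.45 for miR-195a-5p, -0.52 for miR-322-5p, -0.57 for miR-15a-5p and -0.66 for miR-15b-5p. All 6 then passed the threshold as lower. Set against that median, miR-16-5p was the only member less reduced than the typical miRNA. Scaling to the labelling spike-ins, RNAs added before labelling, gave a median of -0.38 and members from -0.65 to -0.35, again all past the threshold.

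The clusters and the hairpin arms were therefore compared on the same array, where a scaling factor shared by both miRNAs cancels. Quantile normalization is not such a factor, so the size of a difference could still change with the normalization. For each pair, the log2 difference between the miRNAs was taken on each array, and its mean was compared between genotypes with a 2-sided exact permutation test. Of 11 pairs in the list, 9 had both miRNAs tested, and p-values were adjusted by Benjamini-Hochberg over these 9. Adjusted p-values fell below 0.05 in 5 of the 9 pairs, and the groups did not overlap in 1 of them. Over all 92235 pairs of miRNAs detected on every array, the groups did not overlap in 25.3%, and the unadjusted exact p was below 0.05 in 62.5%. The same 5 of 9 family pairs had an unadjusted p below 0.05, a share near that background. The median size of the genotype change over all those pairs was 0.33, above the size of each of the 9 family pairs.

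The pair with no overlap lay between the clusters on chromosomes 14 and 11. MiR-15a-5p minus miR-195a-5p was 1.76 to 1.89 in WT mice (median 1.84) and 1.49 to 1.67 in Dgcr8+/- mice (median 1.63). Every Dgcr8+/- mouse lay below every WT mouse. The genotype change was -0.22 (95% confidence interval -0.28 to -0.16 by inversion of the permutation test, exact p = 0.000155, the smallest that 8 mice against 8 can give, adjusted p = 0.00140), with -0.18 within slide 1 and -0.24 within slide 2. With no normalization it was -0.12 (exact permutation test, adjusted p = 0.00373) and the groups overlapped, with all 8 Dgcr8+/- mice below the WT median. With cyclic loess normalization it was -0.10 (exact permutation test, adjusted p = 0.0164).

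The signal of miR-16-5p pools Mir16-1 in Dleu2 and Mir16-2 in Smc4, so its differences from miR-15a-5p and miR-15b-5p cannot be assigned to 1 cluster. MiR-15a-5p, in Dleu2, minus miR-16-5p was -1.25 to -1.01 in WT mice (median -1.11). In Dgcr8+/- mice it was -1.69 to -1.20 (median -1.38). Of the 8 Dgcr8+/- mice, 7 lay below the lowest WT mouse. The genotype change was -0.27 (95% confidence interval -0.40 to -0.15, exact permutation p = 0.000311, adjusted p = 0.00140). It was -0.36 within slide 1, -0.27 within slide 2 and -0.23 without Dgcr8+/- replicate 2. With no normalization it was -0.21 (exact permutation test, adjusted p = 0.00140) and the groups no longer overlapped.

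MiR-15b-5p, in Smc4, minus the same pooled miR-16-5p signal was -3.50 to -3.23 in WT mice (median -3.39). In Dgcr8+/- mice it was -4.29 to -3.40 (median -3.62). Of the 8 Dgcr8+/- mice, 6 lay below the lowest WT mouse. The genotype change was -0.29 (95% confidence interval -0.51 to -0.11, exact permutation p = 0.00218, adjusted p = 0.00490), with -0.61 within slide 1 and -0.20 within slide 2. Without replicate 2 it was -0.20 (exact permutation test, adjusted p = 0.0101). From the deposited table of total signals it was -0.21 and did not pass (exact permutation test, adjusted p = 0.134).

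MiR-15b-5p minus miR-195a-5p, between chromosomes 3 and 11, was -0.52 to -0.27 in WT mice (median -0.45) and -0.97 to -0.44 in Dgcr8+/- mice (median -0.68). Of the 8 Dgcr8+/- mice, 7 lay below the lowest WT mouse. The genotype change was -0.24 (95% confidence interval -0.38 to -0.11, exact permutation p = 0.00171, adjusted p = 0.00490), with -0.43 within slide 1 and -0.16 within slide 2. These 4 pairs set miR-15a-5p or miR-15b-5p against miR-16-5p or miR-195a-5p, so they share miRNAs and are not independent of each other.

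**Figure D3:**
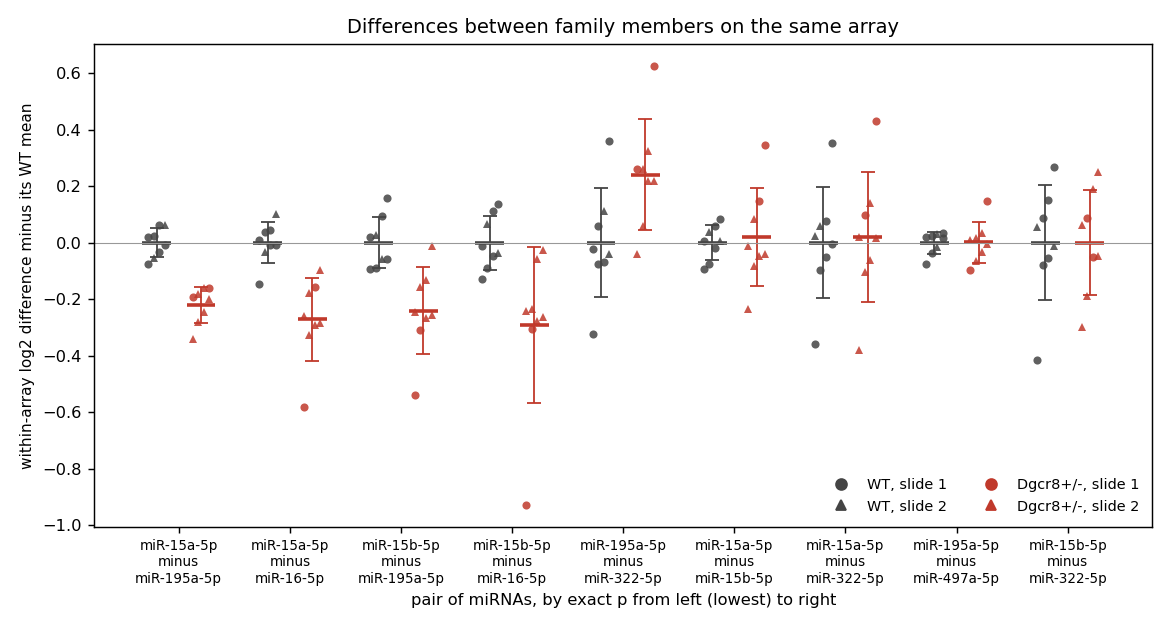
Log2 difference between the miRNAs of each of the 9 tested pairs on the same array (y axis, after subtraction of its WT mean), by genotype and slide, ordered by exact p. Points are mice, thick lines are means and bars are SD (n = 8); the 4 pairs on the left lie lower in Dgcr8+/- mice, and miR-15a-5p minus miR-195a-5p is the pair with no overlap.

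MiR-195a-5p minus miR-322-5p, between chromosomes 11 and X, was 1.74 to 2.42 in WT mice and 2.02 to 2.69 in Dgcr8+/- mice, and 1 Dgcr8+/- mouse lay above the highest WT mouse. The genotype change was 0.24 (95% confidence interval 0.034 to 0.45, exact permutation p = 0.0247, adjusted p = 0.0445), with 0.45 within slide 1 and 0.14 within slide 2. It lost the threshold in 12 of 16 runs that each left out 1 array, and with no normalization it was 0.074 (exact permutation test, adjusted p = 0.531).

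The remaining 4 pairs did not pass. Between the hairpins of chromosome 11, miR-195a-5p minus miR-497a-5p changed by 0.00076 (95% confidence interval -0.059 to 0.064, exact permutation p = 0.979). MiR-15a-5p minus miR-15b-5p changed by 0.020 (95% confidence interval -0.11 to 0.16, exact permutation p = 0.775), with 0.25 within slide 1 and -0.076 within slide 2. MiR-15a-5p minus miR-322-5p changed by 0.020 (95% confidence interval -0.21 to 0.25, exact permutation p = 0.836). MiR-15b-5p minus miR-322-5p changed by 0.00041 (95% confidence interval -0.21 to 0.21, exact permutation p = 0.997). The intervals of both pairs with miR-322-5p are wide beside the change of -0.22 in miR-15a-5p minus miR-195a-5p.

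The arms of the miR-322 hairpin could not be compared between genotypes. MiR-322-5p was detected on all 16 arrays, while mmu-miR-322-3p was detected on 0 of 16 and its signal, averaged over 4 probes, lay at the floor of 1 signal unit (log2 of 0) on every array. Its neighbour mmu-miR-503-5p, from the next hairpin, was also detected on 0 of 16 arrays. Its log2 signal ran from 0 to 2.33, against 0 to 1.78 for the dimmest detected miRNA of each array, and it exceeded that level on 6 arrays without being called detected. The software calls a miRNA detected from its signal and the error of that signal, so both have only an upper bound here.

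The other arms of the family's hairpins were miR-15a-3p, miR-15b-3p, miR-16-1-3p, miR-16-2-3p, miR-195a-3p, miR-497a-3p and miR-503-3p. All 7 were detected on 0 of 16 arrays. The 5p arm was thus the only arm detected from the hairpins of miR-15a, miR-15b, miR-195a, miR-497a and miR-322, and miR-16-1-3p and miR-16-2-3p, the arms that would tell the loci of miR-16-5p apart, gave no measurement. Other miRNAs on the array with the seed AGCAGCA were miR-195b, miR-6342, miR-6353 and miR-6419, and none of the 4 was detected on any array. No other mature miRNA in the RefSeq table had the seed of miR-503-5p.

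Of 9 further miRNAs made from the X-linked region of Mir322 and Mir503, 7 were detected on no array. MiR-450a-5p was detected on 6 WT arrays and 1 Dgcr8+/- array, too few to be tested, and its log2 signal spanned 3.02 to 3.67 in WT mice and 3.02 to 3.65 in Dgcr8+/- mice. MiR-450a-2-3p was the 1 that was tested. It was dim, with log2 signals of 2.53 to 3.12 in WT mice (median 2.64) and 2.84 to 3.60 in Dgcr8+/- mice (median 3.13). The groups overlapped, and it was higher in Dgcr8+/- mice, by 0.44 on the log2 scale (95% confidence interval 0.21 to 0.66, adjusted p = 0.00238 from limma). With no normalization or with labelling spike-in scaling, 0 tested miRNAs passed as higher, so this call was lost under both.

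**Figure D4:**
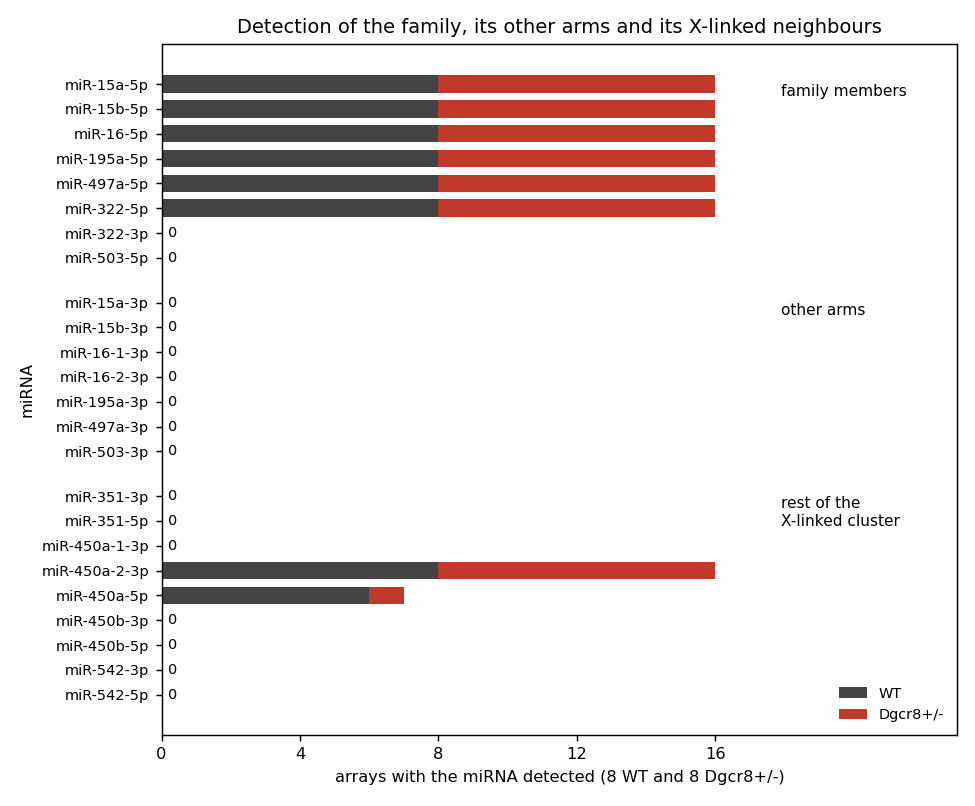
Number of arrays (x axis, of 8 WT and 8 Dgcr8+/-) on which each of the 8 family members, the 7 other arms and 9 further miRNAs of the X-linked cluster was detected. Members made from the 5p arm fill all 16 arrays except miR-503-5p, and no other arm appears on any array.

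Probes and array profiles were compared for the tested members as a description. The 2 probes of each member gave genotype differences of the same sign for all 6. They were -0.17 and -0.10 for miR-15b-5p, and 0.072 and 0.15 for miR-497a-5p. The likeness of profiles was the root mean square difference over 16 arrays between log2 signals centred on each miRNA's own mean, among 424 other miRNAs detected on every array. MiR-15a-5p was nearest to miR-23b-3p (0.060), miR-15b-5p to miR-140-3p (0.11), miR-16-5p to miR-24-3p (0.066) and miR-195a-5p to miR-130a-3p (0.048). Within the family, miR-195a-5p was nearest to its cluster partner miR-497a-5p (0.055), and miR-16-5p to miR-195a-5p (0.10) rather than to miR-15a-5p or miR-15b-5p, its cluster partners. The medians over all candidates were 0.23 to 0.29.

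Of the miRNAs that mark cell types of the slice, those past the threshold are counted here with the log2 of each list's summed signal, and their part in the family's values was not tested. Over all 495 tested miRNAs, 28.3% passed as higher and 27.9% as lower. Of the vessel miRNAs, 2 of 4 were higher in Dgcr8+/- mice (miR-126a-5p by 0.16 and miR-143-3p by 0.22), with summed signals of 10.68 to 10.83 in WT and 10.63 to 10.91 in Dgcr8+/- mice. MiR-126a-3p, the brightest of the 4, changed by 0.0036 and miR-145a-5p by 0.16, and neither passed. Of the red blood cell miRNAs, 1 of 3 was lower, miR-486a-5p by a log2 fold change of -0.66 (9.05 to 9.80 and 8.87 to 9.50). It was detected on 8 WT but only 3 Dgcr8+/- arrays, so it met the detection filter through the WT arrays. MiR-144-3p (-0.15) and miR-451a (-0.12), detected on all arrays, did not pass. Of the choroid plexus miRNAs 1 of 2 was lower (9.06 to 9.52 and 8.66 to 9.29). Of the neuronal miRNAs 1 was lower and 1 higher of 4 (14.84 to 14.98 and 14.87 to 15.03). The counts were the same for microglial and immune miRNAs (8.25 to 8.45 and 8.21 to 8.45). Of the oligodendrocyte miRNAs 1 of 3 was higher (12.97 to 13.56 and 13.00 to 13.46). Of the ciliated ependymal miRNAs, 0 of 5 tested passed at adjusted p-values from limma (9.08 to 10.33 and 9.76 to 10.62), 1 of them had an unadjusted p below 0.05, 0 passed by the methods' t-test after adjustment, and miR-449c-5p lay at the floor on all arrays. The log2 fold changes of those 5 were 0.15 to 0.35, with a list median of 0.29. The summed signals overlapped between genotypes for all 7 lists.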

How the data were processed

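RNA of 16 LV walls, from 8 WT and 8 Dgcr8+/- males, was hybridised to 1-colour Agilent miRNA arrays with 4415 probes. The authors deposited spot intensity values from Feature Extraction (version 10.5.1.1 per the labels, 10.7.3.1 per the file headers), background-corrected and not normalized between arrays. The authors also deposited a table of total signal intensity per miRNA. It matched the total gene signal in the scanner output with a largest difference of 0. Where results from this table are given, it was quantile-normalized first. From the spots, those marked as outliers were left out, spots were averaged per probe, probes were quantile-normalized as the study's methods state, and the probes of each miRNA were averaged. Values below 1 were set to 1 and log2 was taken. No spot was saturated and no 2 arrays held identical values. Tests took the 495 miRNAs with a detection call on 8 or more of the 16 arrays.

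Genotypes were compared with limma 3.58.1 in R 4.3.3, calling adjusted (Benjamini-Hochberg) p-values below 0.05. Single values used 2-sided exact permutation tests over all 12870 groupings. The scripts were tested on simulated data. The labels call the samples biological replicates, and the number of arrays limits the precision. Named miRNAs were the members, the other arms of their hairpins, the rest of the X-linked cluster, miRNAs with the same seed, and the nearest profile of 4 members. The members and lists were chosen with earlier results of these data known. Sequences and coordinates are from RefSeq (GRCm38.p6), and the arrays' own coordinates were not used. Alternatives were other normalizations (75th percentile, labelling spike-ins, cyclic loess, none), a normexp background correction (offset 50), no spot left out, a floor of 4, other detection filters, the median of probes, the deposited table, slide as a block, a replicate block, the methods' t-test and each array left out.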

Additional observations from a re-analysis of the deposited data

Results flagged for a closer look

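Of 32 groups of 8 values searched for 1 value far from the rest, 3 held one, and chance gives about 1 in 20 such groups. All 3 were from Dgcr8+/- replicate 2, the array with the lowest median signal, fewest detected miRNAs and lowest spike-ins. Its log2 signal of miR-322-5p was 5.56, against 6.01 to 6.28 in the other Dgcr8+/- mice. Its miR-15a-5p minus miR-16-5p was -1.69, against -1.43 to -1.20. Its miR-15b-5p minus miR-16-5p was -4.29, against -3.67 to -3.40. Both differences hold the same miR-16-5p value, so they are not independent. The part of the low array signal in these values was not tested. Without this mouse, the genotype changes of the 2 differences were -0.23 and -0.20.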

How the results depend on the processing

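Without normalization, genotype differences were -0.57 for miR-15a-5p, -0.66 for miR-15b-5p, -0.36 for miR-16-5p, -0.45 for miR-195a-5p, -0.44 for miR-497a-5p and -0.52 for miR-322-5p. With labelling spike-ins they were -0.56, -0.65, -0.35, -0.44, -0.43 and -0.52 in the same order, and all 12 passed as lower. Under both, the median log2 fold change over all tested miRNAs was also below 0, at -0.39 and -0.38. Limma then called 293 and 264 miRNAs lower and 0 higher. With 75th percentile scaling miR-322-5p was at 0.013, and 126 miRNAs were lower and 210 higher. MiR-16-5p missed the threshold when no spot was left out (0.16) and in the deposited table (0.072), in which miR-15a-5p (-0.16), miR-195a-5p (0.16) and miR-497a-5p (0.15) passed. MiR-195a-5p passed by the methods' t-test with adjustment (0.10). The cause of these changes was not tested.

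The same-array changes of miR-15a-5p minus miR-195a-5p, miR-15a-5p minus miR-16-5p and miR-15b-5p minus miR-195a-5p kept direction and threshold under every alternative run. That of miR-15b-5p minus miR-16-5p missed the threshold in the deposited table (-0.21). That of miR-195a-5p minus miR-322-5p missed it with no normalization, 75th percentile or spike-in scaling (0.074 under each), cyclic loess (0.11), no spot left out (0.24) and the median of probes (0.23). The other 4 differences passed under no alternative run, and each turned sign under some. MiR-15a-5p minus miR-322-5p was at -0.048 with no normalization, the 75th percentile or spike-ins, at -0.045 with normexp and at -0.021 in the deposited table. MiR-15b-5p minus miR-322-5p was at -0.13 under those 3 scalings, -0.11 with cyclic loess, -0.035 with normexp and -0.00065 with slide as a block. MiR-195a-5p minus miR-497a-5p was at -0.0085 under those 3 scalings, -0.0029 with cyclic loess, -0.00050 with normexp and -0.017 with the median of probes. MiR-15a-5p minus miR-15b-5p was at -0.0095 with normexp and -0.023 in the deposited table, against 0.085 under those 3 scalings and 0.11 with cyclic loess.

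Leaving out each array in turn gave log2 fold changes of 0.12 to 0.17 for miR-16-5p, which passed in all 16 runs. The range was 0.087 to 0.13 for miR-195a-5p, with 2 of 16 runs past the threshold, and 0.077 to 0.14 for miR-497a-5p, with 1 of 16. MiR-195a-5p minus miR-322-5p ran from 0.19 to 0.29. MiR-15a-5p minus miR-15b-5p ran from -0.026 to 0.056, miR-15a-5p minus miR-322-5p from -0.038 to 0.078, miR-15b-5p minus miR-322-5p from -0.059 to 0.043 and miR-195a-5p minus miR-497a-5p from -0.020 to 0.015.

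Whether the replicate numbers pair the mice could not be decided, and the main tests did not use them. Same-numbered deviations correlated at -0.14 to 0.50, above 0.1 in 5 of 8 pairs, and 5 of 16 arrays correlated best with their own number. With the replicate block, 287 miRNAs passed against 278, miR-15a-5p passed at -0.12 (adjusted p = 0.0382 from limma), and miR-195a-5p minus miR-322-5p missed the threshold at 0.24 (exact permutation test, adjusted p = 0.0562). MiR-322-3p, miR-503-5p and the other arms were below detection on every array and were tested under no setting.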
